A study of Arabidopsis thaliana and Setaria viridis and Zea mays with 22 samples.

Results

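The Arabidopsis root cells that the authors named 11_18_Endocortex were taken from the deposited cell table by that name, keeping the first of the 2 listings of each cell in library ical1. There were 2131 such cells or nuclei among 32790, and they fell into 2 of the 22 deposited clusters, 1377 in cluster 11 and 754 in cluster 18. Of them, 479 were protoplasts and 1652 were nuclei, so that 77.5% of the endocortex came from nuclei, against 46.1% of all cells pooled over libraries. The types used for comparison, 20_Cortex and 21_endodermis, held 628 and 578 cells, each in a single cluster of that number. Of these, 57.2% and 57.6% came from nuclei.

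Protoplasts, which are whole cells freed from their walls, came from 6 libraries of 1085 to 3827 cells, and nuclei came from 3 libraries of 4561 to 5396 nuclei. Both preparations were made from the root meristem of plants of the accession Col-0, with tips cut at 150 µm after 7 days of growth, although an age tag gives 10 days. RNA was read with the 10x Genomics 3' kit, which counts molecules by unique molecular identifiers (UMIs), and the labels give chemistry version 2 for every protoplast library and version 3 for every nuclei library. Preparation and labelled chemistry therefore cannot be told apart by the labels. Whether libraries came from separately grown plants is not stated. Apart from a chi-square in the processing notes, p-values speak only of the spread from library to library.

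Cortex and endodermis form the ground tissue, the layers between the epidermis and the vascular cylinder. In the Arabidopsis root tip both arise from common initial cells beside the quiescent centre, whose daughters divide asymmetrically to give an outer cortex layer and an inner endodermis layer. The transcription factor SHORT-ROOT moves outward from the stele into this layer and acts there with SCARECROW (SCR) to set off that division, and JACKDAW (JKD), a zinc finger protein, helps to confine SHORT-ROOT to it. The endodermis later builds the Casparian strip, the barrier that makes water and ions pass through living cells. The sources used here do not say what the name endocortex covers. SCR (AT3G54220) and JKD (AT5G03150) are markers of this layer, but expression per gene was not analysed here, so the name was not checked against them. All results below concern numbers of cells, UMIs and detected genes.

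Protoplast libraries held 50723576 to 138202792 UMIs in total and nuclei libraries 16761417 to 23093915. The shallowest cell of a library held 10002 to 15068 UMIs among protoplasts and 1150 to 1211 among nuclei, so the preparations enter the table at different minima. Among the 36 pairs of libraries, 22 shared at least 1 cell barcode and no pair shared more than 11. None of the 104 shared barcodes had equal UMIs and genes in both libraries. The protoplast libraries are named ctr1, ctr3248V3, ctr4h, ctr914, ical1 and ical32hV3, names that the sources used here do not explain. They were pooled as a single group, although the names may mark different conditions. Library ctr1 holds 2 barcode suffixes, with 1660 and 1632 cells.

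Both endocortex clusters made up a smaller share of protoplasts than of nuclei. Cluster 11 made up between 0.876% (ctr3248V3) and 2.79% (ctr1) of the cells in protoplast libraries, with a median of 2.14%, against 7.87%, 6.91% and 5.58% in nuclei replicates 1, 2 and 3. Every protoplast library lay below every nuclei library. The mean share was 2.11% ± 0.704 in protoplasts (SD, n = 6) and 6.78% ± 1.15 in nuclei (SD, n = 3), a log2 fold of -1.69 with a standard error (SE) of 0.33 (edgeR's quasi-likelihood test on numbers of cells, two-sided, Benjamini-Hochberg adjusted p = 0.00240 over 22 clusters). This is 3.22-fold lower in protoplasts.

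Cluster 18 was scarcer still among protoplasts. It made up between 0.0531% (ctr3248V3) and 1.75% (ical1) of the cells in protoplast libraries, with a median of 0.726%, against 5.27%, 4.17% and 3.15% in nuclei replicates 1, 2 and 3. Again the preparations did not overlap. The lowest value rested on 2 cells, with a 95% exact Clopper-Pearson interval of 0.00643% to 0.192%, an interval that covers counting error only. The mean share was 0.820% ± 0.597 in protoplasts and 4.19% ± 1.06 in nuclei, which is 5.34-fold lower in protoplasts (log2 fold -2.42, SE 0.64, adjusted p = 0.0160 by edgeR). Without nuclei replicate 1, which held the most cluster 18 nuclei, the log2 fold was -2.22 and edgeR's adjusted p was 0.0666, above the threshold of 0.05.

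Across all clusters, 8 of 22 passed the same test (36.4%), with 4 lower in protoplasts (18.2%) and 4 higher (18.2%). For 5 of 22 clusters (22.7%) every protoplast library lay below every nuclei library, and clusters 11 and 18 were among them. Ordered by log2 fold from the lowest, cluster 4 came first at -2.48, followed by cluster 18 and then cluster 11, and cluster 6 stood at the other end at 2.89. Cluster 4 carries the deposited name 4_To_determined. An adjusted p under 0.05 was common in this comparison. By type name, with clusters 11 and 18 summed, the endocortex was 1 of 6 types of 17 that passed (35.3%). DESeq2 with its own size factors called 11 clusters, 7 higher and 4 lower, and moved the median log2 fold of all clusters by 0.25. Clusters 11 and 18 stayed lower in protoplasts there, at -1.54 and -2.32.

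**Figure D1:**
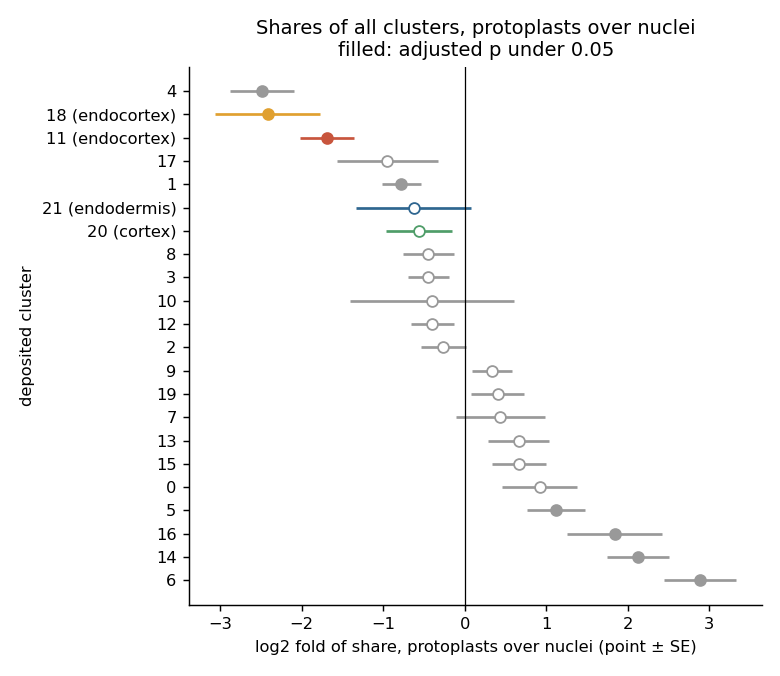
Each point is the log2 fold of a deposited cluster's share of cells, protoplasts over nuclei, with its SE as a bar. Filled points had an edgeR adjusted p under 0.05, and clusters 18 (-2.42) and 11 (-1.69) are the lowest but for cluster 4, while cortex and endodermis are open points at -0.56 and -0.63.

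The types named cortex and endodermis did not pass the test. The cortex made up 1.62% ± 0.631 of protoplasts and 2.38% ± 1.27 of nuclei (log2 fold -0.56, SE 0.41, edgeR adjusted p = 0.265). Its fold moved with the settings, to -0.045 without nuclei replicate 1, -0.0051 with protoplasts under 20000 UMIs left out and -0.93 with nuclei under 2000 UMIs left out, and passed the test in none of these. The endodermis made up 1.41% ± 1.44 of protoplasts and 2.19% ± 1.39 of nuclei (log2 fold -0.63, SE 0.71, edgeR adjusted p = 0.438). In both types protoplast and nuclei libraries overlapped. In both, as in clusters 11 and 18, nuclei replicate 1 held the highest share among nuclei.

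**Figure D2:**
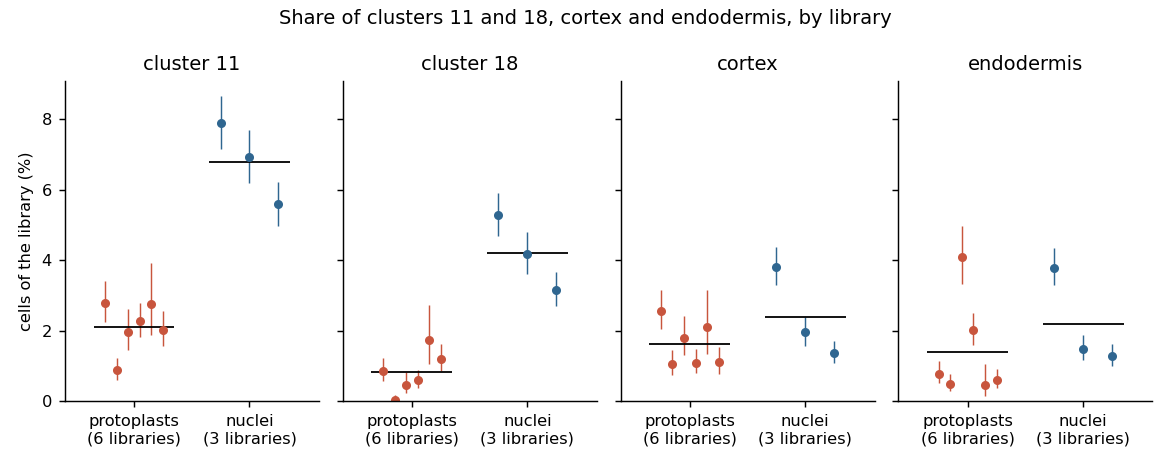
Each point is the share of a library's cells in cluster 11, cluster 18, the cortex or the endodermis, with its 95% exact binomial interval, and the black lines are means over libraries. Cluster 11 spans 0.876% to 2.79% in protoplasts and 5.58% to 7.87% in nuclei and cluster 18 spans 0.0531% to 1.75% and 3.15% to 5.27%, whereas cortex and endodermis overlap between preparations.

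The share of cluster 11 depended on how many UMIs a protoplast was required to hold. With protoplasts under 20000 UMIs left out, cluster 11 made up 2.09% to 4.28% of the remaining protoplasts, and its log2 fold against all nuclei shrank to -1.0 (SE 0.27, edgeR adjusted p = 0.0170). Cluster 18 changed less and stood at -2.03 (SE 0.57, adjusted p = 0.0170 by edgeR). Both clusters remained lower in protoplasts under this stricter minimum.

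The chemistry versions use different lists of barcodes, so that shared barcodes bear on the chemistry in part. The protoplast libraries ctr3248V3, ctr4h, ctr914 and ical32hV3 shared 25, 7, 18 and 10 barcodes with the nuclei libraries, whereas ctr1 and ical1 shared 0. Among those 4 protoplast libraries alone the log2 fold against nuclei was -1.93 for cluster 11 (edgeR adjusted p = 0.00659) and -2.85 for cluster 18 (edgeR adjusted p = 0.0164), at least as large as over all libraries. Which chemistry each protoplast library used was not tested beyond this count of barcodes.

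Within the endocortex, the balance of the 2 clusters was even across nuclei libraries and uneven across protoplast libraries. Cluster 18 made up 40.1%, 37.6% and 36.1% of the endocortex in nuclei replicates 1, 2 and 3. Among protoplasts it made up 5.71% in ctr3248V3, 19.0% in ctr4h, 20.9% in ctr914, 23.3% in ctr1, 37.4% in ical32hV3 and 38.8% in ical1. The 2 libraries named ical thus fell within the range of the nuclei, and the 4 libraries named ctr lay below all nuclei. The cell ratio of cluster 11 to cluster 18 had a geometric mean of 3.47 in protoplasts and 1.64 in nuclei, a log2 difference of 1.08 (SE 0.46) that did not pass an exact two-sided permutation test over libraries (p = 0.143, adjusted p = 0.25 over 7 ratios). Without the ical libraries the log2 difference was 1.64 (adjusted p = 0.08 by the same exact test), and the share of cluster 18 was lower still against nuclei, with -3.09 as its log2 fold (adjusted p = 0.00858 by edgeR).

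Library ctr1 itself was uneven in cluster 18. Under its first barcode suffix 5 cells, or 0.301% (95% exact interval 0.0979% to 0.702%), belonged to cluster 18, and under its second suffix 23 cells, or 1.41% (0.895% to 2.11%). Cluster 11 made up 2.95% and 2.63% of the cells under these suffixes. The intervals cover counting error only, and the sources used here do not say what the suffixes stand for. In ical1, whose 1085 cells are each listed 2 times, 95.7% of cells carried the same cluster in both listings. Of its 30 cells first listed in cluster 11, 27 were again in cluster 11, and all 19 first listed in cluster 18 were again in cluster 18.

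Within each library, there were fewer endocortex cells per cortex cell among protoplasts, although no ratio passed the test after adjustment. There were 0.877 to 2.87 endocortex cells per cortex cell in protoplast libraries (geometric mean 1.73) and 3.44 to 6.33 in nuclei libraries (geometric mean 4.97), with no overlap. The log2 difference was -1.53 (SE 0.38), with p = 0.0238 in the exact permutation test and an adjusted p of 0.0833 over the 7 ratios. For cluster 11 alone there were 0.827 to 2.059 cells per cortex cell in protoplasts and 2.064 to 4.05 in nuclei, so that the preparations only just separated, and the log2 difference was -1.25 (SE 0.36). Its exact permutation p of 0.0119 is the smallest that the 84 rearrangements of 9 libraries can give, and its adjusted p was 0.0833. For cluster 18 there were 0.0617 to 1.08 cells per cortex cell in protoplasts and 1.38 to 2.29 in nuclei, a log2 difference of -2.34 (SE 0.65, exact permutation p = 0.0357, adjusted p = 0.0833).

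Ratios to the endodermis were more scattered. There were 0.594 to 9 endocortex cells per endodermis cell in protoplast libraries and 3.46 to 7.38 in nuclei libraries, and the protoplast range enclosed that of nuclei. The log2 difference was -1.08 (SE 0.68, adjusted p = 0.333 in the exact permutation test). Library ctr4h held 98 endodermis cells and 58 endocortex cells, and ical1 held 5 and 49. For cluster 11 over endodermis the log2 difference was -0.80 (adjusted p = 0.357) and for cluster 18 over endodermis it was -1.89 (adjusted p = 0.3), both by the exact test. As a share of the 4 clusters together, cluster 18 ranged from 2.13% to 24.7% over protoplast libraries and from 25.4% to 28.7% over nuclei libraries.

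**Figure D3:**
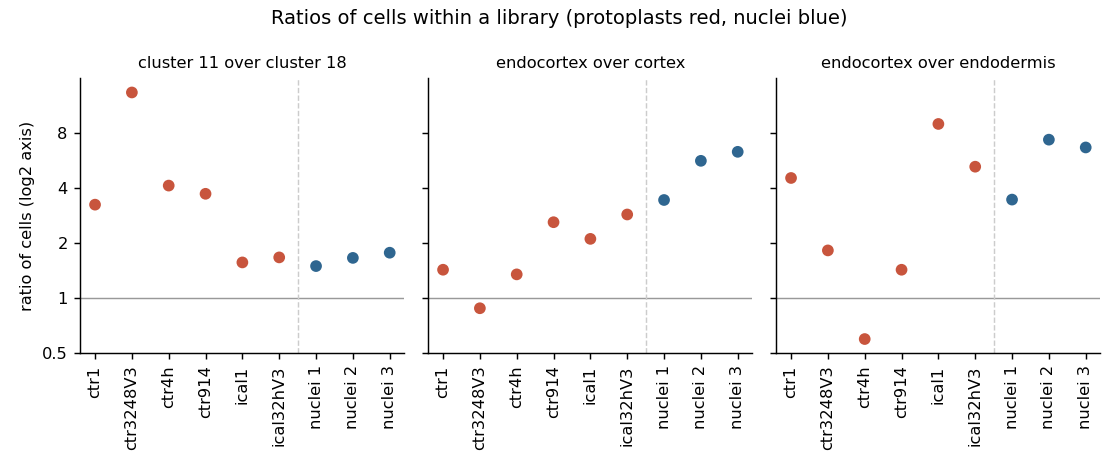
Each point is the ratio of cells of one kind to another within a library, on a log2 axis, with protoplast libraries in red left of the dashed line and nuclei libraries in blue. The ratio of cluster 11 to cluster 18 reaches 13.4 in ctr3248V3 and lies at 1.49 to 1.77 in nuclei, and endocortex cells per cortex cell lie at 0.877 to 2.87 in protoplasts and 3.44 to 6.33 in nuclei.

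Over the 6 protoplast libraries the shares of clusters 11 and 18 tended to be high or low together, but no relation passed the test. Their Pearson correlation was 0.74 (exact permutation p = 0.05, adjusted p = 0.2 over 4 relations) and Spearman's rho was 0.71 (exact permutation p = 0.136, adjusted p = 0.272). Without the 2 libraries farthest from the median of cluster 11 the Pearson correlation was again 0.74. For endocortex with cortex share it was 0.62 (exact permutation p = 0.186, adjusted p = 0.248; rho 0.77, p = 0.103, adjusted p = 0.272), and it fell to 0.10 without the 2 farthest libraries, so that it rests on those libraries. For endocortex with endodermis share it was -0.20 (exact permutation p = 0.561, adjusted p = 0.561; rho -0.37, p = 0.497, adjusted p = 0.497) and 0.17 without the 2 farthest libraries. For endocortex share with the median UMIs of the library it was 0.67 (exact permutation p = 0.153, adjusted p = 0.248; rho 0.60, p = 0.242, adjusted p = 0.322) and 0.58 without the 2 farthest libraries.

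Clusters 11 and 18 differed in RNA content. The median cluster 11 cell held 28968 (ctr4h) to 69090.5 (ical1) UMIs in protoplast libraries, with a median of 49486, and 2477, 3336 and 3883 UMIs in nuclei replicates 1, 2 and 3. The median cluster 18 cell held 19662 (ical32hV3) to 39845 (ctr3248V3) UMIs in protoplast libraries, with a median of 28369, and 2011, 2412.5 and 2802 UMIs in nuclei. Cluster 11 was above cluster 18 in every library of both preparations. Over all cells, library medians ran from 16709 to 28379 UMIs in protoplasts and from 2320 to 2984.5 in nuclei. Because clusters were made from the same cells, these differences between clusters are descriptions without a test.

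Detected genes followed the same order in most libraries. The median cluster 11 cell had 5501 (ctr4h) to 8695.5 (ical1) genes in protoplast libraries and 1840, 2298 and 2520 in nuclei. The median cluster 18 cell had 5396.5 (ical32hV3) to 7108 (ctr3248V3) genes in protoplasts and 1565, 1765 and 1998.5 in nuclei. In ctr4h and ctr914 cluster 18 had slightly more genes than cluster 11, with 5535 against 5501 and 6386 against 6302, although it had fewer UMIs.

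**Figure D4:**
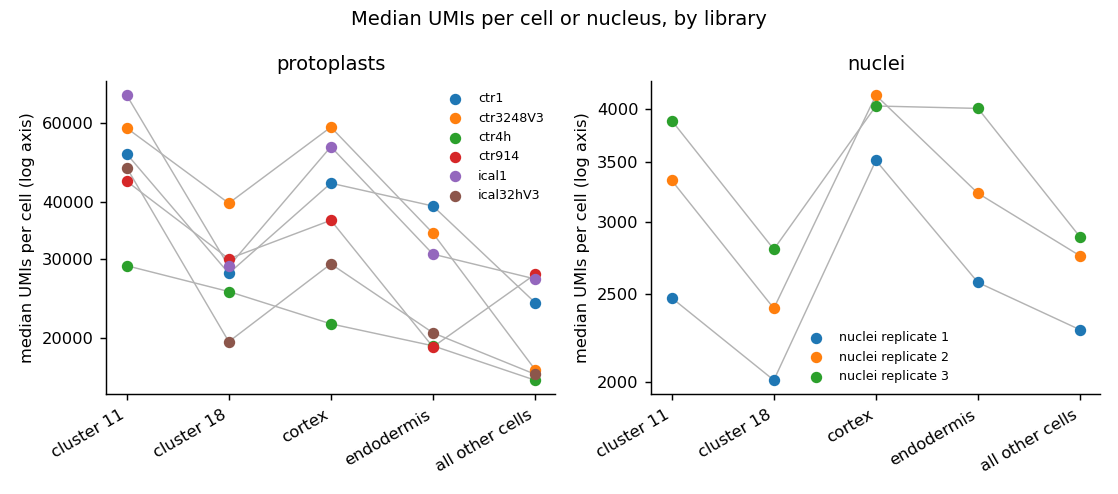
Each point is the median number of UMIs per cell (left) or per nucleus (right) of one kind of cell in one library, on log axes of different range, and grey lines join the values of a library. Cluster 11 lies above cluster 18 in all 9 libraries, and the cortex is the highest of the kinds shown in all 3 nuclei libraries and, among protoplasts, in ctr3248V3 alone. The cluster 18 value of ctr3248V3 rests on 2 cells and the endodermis value of ical1 on 5.

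Among all 22 clusters ordered by median UMIs from the highest, cluster 11 held place 1 to 7 in protoplast libraries (median 2.5) and place 6 to 12 in nuclei libraries (median 8). Cluster 18 held place 8 to 14 in protoplasts and 15 to 18 in nuclei. To compare preparations, the median log2 UMIs of each cluster with at least 10 cells was taken relative to the median over clusters of the same library. Relative to that level cluster 11 stood at 0.71 ± 0.25 in protoplasts (SD, n = 6) and 0.11 ± 0.15 in nuclei (SD, n = 3) on the log2 scale, a difference of 0.61 (SE 0.20, limma adjusted p = 0.00682 over 22 clusters). Protoplast libraries lay between 0.53 and 1.15 and nuclei libraries between -0.02 and 0.27, without overlap. Such a separation was common and not particular to cluster 11, and clusters 6, 7 and 12 were among the others that showed it. By this test 9 of 22 clusters passed (40.9%), 5 of them higher in protoplasts (22.7%). The SE was 0.20 for every cluster, because limma here used a spread pooled over clusters and not each cluster's own. The clusters come from the same libraries, so these p-values can be too small. Taken relative to the median of all cells of the library instead, 7 clusters passed, 6 higher and 1 lower, and cluster 11 differed by 0.93 (limma adjusted p = 0.0109) and cluster 18 by 0.39 (limma adjusted p = 0.103). Among the 9 that passed relative to the median over clusters, the differences farthest from 0 were -1.14 in cluster 6, 0.87 in cluster 12 and -0.81 in cluster 7.

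The higher relative UMI content of cluster 11 in protoplasts lost its call under 2 settings. With protoplasts under 20000 UMIs left out the difference was 0.45 (limma adjusted p = 0.0841), and without nuclei replicate 1 it was 0.55 (limma adjusted p = 0.0657). Cluster 18 stood at -0.15 ± 0.38 in protoplasts (SD, n = 5, ctr3248V3 left out with 2 cells) and -0.31 ± 0.11 in nuclei, a difference of 0.16 (SE 0.20, limma adjusted p = 0.577). The cortex differed by -0.02 (SE 0.20, limma adjusted p = 0.935) and the endodermis, with ical1 left out at 5 cells, by -0.23 (SE 0.20, limma adjusted p = 0.423).

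Within each library the endocortex was also set against cortex and endodermis directly. Endocortex minus cortex, as median log2 UMIs, was 0.08 ± 0.16 in protoplasts (n = 6, above 0 in 3) and -0.44 ± 0.23 in nuclei (n = 3, above 0 in 0), a difference of 0.52 (SE 0.15, exact permutation p = 0.0119, again the smallest possible, adjusted p = 0.0357 over 3 differences). With 1 library left out the difference stayed at 0.43 to 0.65, and its adjusted p was above 0.05 for each library left out except ctr1, since fewer libraries also raise the smallest p. The endocortex here mixes both clusters, of which cluster 11 is the richer in UMIs. Cluster 11 made up 75.8% of this mix in protoplasts and 62.1% in nuclei, as means over libraries. The part of the mix in the difference was not tested. Endocortex minus endodermis was 0.59 ± 0.38 in protoplasts (n = 5, above 0 in 5) and -0.17 ± 0.014 in nuclei (n = 3, above 0 in 0), a difference of 0.76 (SE 0.17, exact permutation p = 0.0536, adjusted p = 0.0804). Without ctr1 it was 0.89 with an adjusted p of 0.0429 by the same exact test. Cluster 11 minus cluster 18 was 0.84 ± 0.47 in protoplasts (n = 5) and 0.41 ± 0.10 in nuclei (n = 3), a difference of 0.42 (SE 0.22, exact permutation p = 0.214, adjusted p = 0.214) that was 0.13 without the ical libraries.

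As ratios of median UMIs, cluster 11 stood at 0.995 to 1.63 times the cortex in protoplast libraries, above 1 in 5 of 6, and at 0.706, 0.806 and 0.964 times the cortex in the nuclei libraries. Against the endodermis it stood at 1.30 to 2.33 times in protoplasts and at 0.962 to 1.03 times in nuclei. Cluster 18 stood at 0.543 to 1.18 times the cortex in protoplasts, above 1 in ctr4h alone, and at 0.573 to 0.695 times in nuclei. Against the endodermis it stood at 0.709 to 1.57 times in protoplasts and at 0.70 to 0.781 times in nuclei. In nuclei, then, cluster 18 lay below both types in all 3 libraries, and in protoplasts it lay on either side of the endodermis.

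The place of endocortex cells along the range of UMIs was examined by splitting each library into 5 groups of equal size, or quintiles, from the fewest UMIs to the most. In all 6 protoplast libraries the share of cluster 11 was highest in the top quintile. It made up 0.333% ± 0.260 of the lowest quintile and 5.11% ± 1.55 of the top quintile of protoplasts (SD, n = 6), and the top quintile held 50.7% ± 12.7 of all its protoplasts. In nuclei its share was highest in quintile 3 (1 library) or 4 (2 libraries), at 3.32% ± 2.23 of the lowest, 9.47% ± 0.299 of the fourth and 6.75% ± 0.478 of the top quintile (SD, n = 3). Cluster 11 thus lay at the top of the UMI range in protoplasts and above the middle of it in nuclei.

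Cluster 18 lay nearer the middle. Its share was highest in quintile 3 in 3 protoplast libraries (ctr1, ical1 and ical32hV3) and in quintile 2 in ctr914. In ctr4h quintiles 3, 4 and 5 held 3 cells each, and in ctr3248V3 quintiles 4 and 5 held 1 cell each, so that neither library had a clear peak. In nuclei it was highest in quintile 2 (2 libraries) or 3 (1 library). It made up 0.717% ± 0.442 of the top quintile of protoplasts and 2.34% ± 0.131 of the top quintile of nuclei. The cortex was highest in quintile 4 in 5 protoplast libraries and in quintile 5 in all 3 nuclei libraries.

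**Figure D5:**
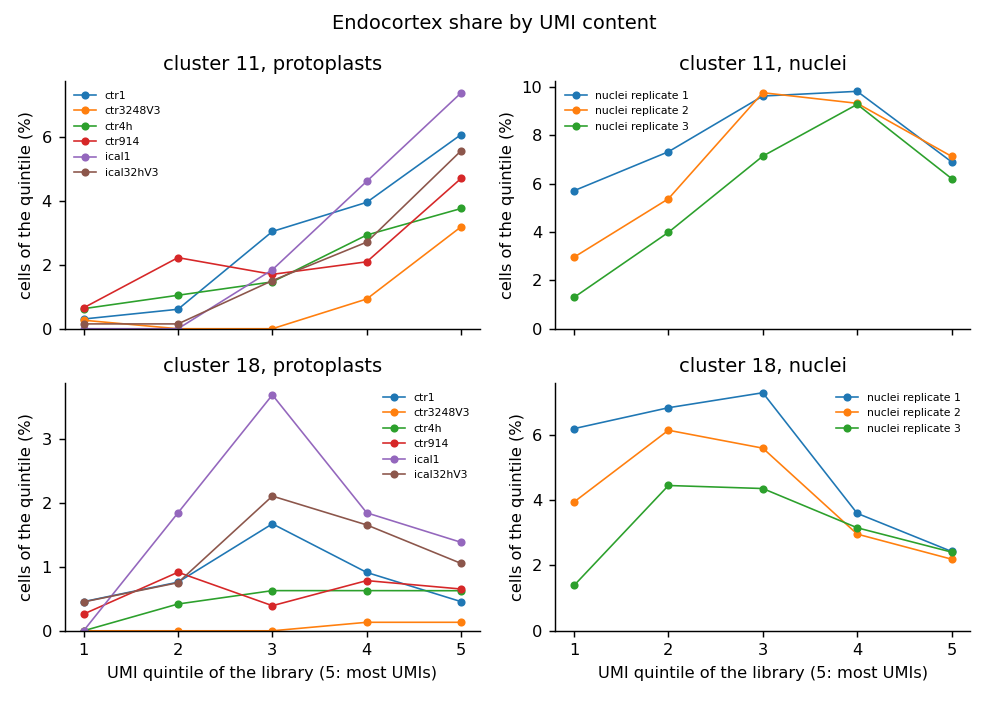
Each line is a library, and each point gives the share of cluster 11 (top row) or cluster 18 (bottom row) among the cells of one UMI quintile, from the fewest UMIs (1) to the most (5), with axes of different range. Cluster 11 climbs to a mean of 5.11% in the top quintile of protoplasts, and in nuclei it averages 9.47% in the fourth quintile and 6.75% in the top one.

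Cluster 11 also reached into the most UMI-rich cells. Of its protoplasts 19.9% ± 10.1 were among the 5% of cells with most UMIs in their library, from 9.78% (ctr1) to 38.8% (ical32hV3), against 5.47% ± 0.813 of its nuclei. For cluster 18 it was 18.2% of protoplasts in ctr4h, where the cluster held 11 cells, 4.35% in ctr914 and 0 in the other 4 protoplast libraries, against 2.44% ± 0.995 of nuclei. For the cortex it was 2.84% ± 2.40 of protoplasts and 8.15% ± 3.07 of nuclei, and for the endodermis 0.877% ± 2.15 and 6.68% ± 2.94. Among nuclei, both means were thus above that of cluster 11. With the top 5% of every library left out, cluster 11 had a log2 fold of share of -1.91 (edgeR adjusted p = 0.00192). Cluster 11 per cortex cell then had a log2 difference of -1.58, with an adjusted p of 0.0417 by the exact permutation test, past the threshold. Its unadjusted exact p had been the smallest possible with all cells kept, so that only the adjustment over ratios moved it past. Among protoplasts this cut takes a larger part of cluster 11 than of the cortex or of all cells. Among nuclei it takes a smaller part of cluster 11 than of the cortex. The cut thus lowers the fold and the log2 difference by itself, and neither value is separate support for a lower share. The spread of UMIs within cluster 11, as the interquartile range of log2 UMIs, was 1.67 ± 0.34 in protoplasts and 0.97 ± 0.0064 in nuclei, and in cluster 18 it was 0.94 ± 0.45 in protoplasts and 0.89 ± 0.15 in nuclei. Over all cells it was 1.51 ± 0.22 in protoplasts and 1.30 ± 0.12 in nuclei. Doublets could not be called from these counts, and their part in the UMI-rich cells was not tested.

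Counted in UMIs in place of cells, the endocortex took 4.61% ± 1.58 of all protoplast UMIs and 10.7% ± 1.40 of all nuclei UMIs. Its share of UMIs was 1.68 ± 0.391 times its share of cells in protoplasts and 0.985 ± 0.0788 times in nuclei. For cluster 11 this ratio was 1.90 ± 0.432 in protoplasts and 1.08 ± 0.0662 in nuclei, and for cluster 18 it was 1.06 ± 0.251 in protoplasts and 0.829 ± 0.0937 in nuclei. The cortex stood at 1.24 ± 0.306 in protoplasts and 1.31 ± 0.0733 in nuclei, and the endodermis at 0.951 ± 0.399 and 1.17 ± 0.0925. Cluster 11 protoplasts held more UMIs than their number of cells would give in all 6 libraries.

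Endocortex cells detected slightly more genes than the typical cell of the same library and like UMI content, in both preparations, which is a description without a test. Such an excess was not particular to the endocortex. In nuclei it held for the cortex too, and in each preparation other clusters stood higher than both endocortex clusters. The log2 excess of genes over all cells in the same bin of UMIs was 0.033 ± 0.025 for cluster 11 in protoplasts (above 0 in 5 of 6) and 0.024 ± 0.0017 in nuclei (above 0 in 3 of 3). For cluster 18 it was 0.034 ± 0.030 in protoplasts (above 0 in 5 of 5) and 0.027 ± 0.0085 in nuclei (above 0 in 3 of 3). The cortex stood at 0.0065 ± 0.035 in protoplasts and 0.025 ± 0.013 in nuclei (above 0 in 3 of 3), and the endodermis at -0.050 ± 0.075 in protoplasts (n = 5) and -0.0014 ± 0.0067 in nuclei. Between preparations cluster 11 differed by 0.01 (SE 0.02, limma adjusted p = 0.794) and cluster 18 by 0.01 (SE 0.02, limma adjusted p = 0.834). By limma 0 of 22 clusters passed (4 had an unadjusted p under 0.05), and 3 passed when each preparation was given a spread of its own.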

How the data were processed

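The deposited table lists cells with the raw count of UMIs and the count of genes seen in each, beside library, cluster and type name. Cell Ranger 5.0.1, Seurat 4.0 and TAIR10 are named in the submitters' processing notes, and per the file headers clusters were made at resolution 0.6. The sources used here do not state filters on cells or how doublets were treated. Library names tie each nuclei library to its label, while the protoplast libraries could be tied to their group only.

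The library was the replicate in every test except the chi-square given below, which counts single cells. Numbers of cells per cluster (of at least 10 cells) entered edgeR 4.0.16 (glmQLFit without trend, robust), total cells being the library size. Relative UMIs, and genes in bins of 0.25 log2 UMIs with at least 10 cells, were tested with limma 3.58.1. Ratios (0.5 added to each count), UMI differences and correlations had exact two-sided permutation tests (numpy 2.4.6, scipy 1.17.1). P-values were adjusted by Benjamini-Hochberg within each family, with a threshold of 0.05. DESeq2 1.42.0 was an alternative. The scripts were tested on simulated data. The 36 pairs of libraries all differed in makeup by chi-square on numbers of cells (largest p = 0.0149), a p-value that covers counting error only.

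Besides clusters 11 and 18, cortex and endodermis, a cluster was named where it was among the 3 of largest fold or difference past the threshold. The members and the lists of comparisons were chosen with earlier results of these data known. The table of the other species was not used here.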

Additional observations from a re-analysis of the deposited data

Results flagged for a closer look

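Of 38 sets of protoplast values checked for a library far from the others, 2 held one, where chance gives about 1 in 20. The cortex of ctr3248V3 took 1.82 times its share of cells in UMIs, and the next library stood at 1.24. The endodermis of ctr914 stood at -0.69 on the log2 scale in relative UMIs, and the next library at -0.06. The endocortex minus cortex difference in median log2 UMIs differed between protoplasts and nuclei by 0.52 in the exact permutation test over libraries (adjusted p = 0.0357).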

How the results depend on the processing

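Over 32 settings, 552 values were recomputed and 508 kept both their direction and their side of the threshold or, for counts, stayed within 1.5 times. No paired analysis was possible because the protoplast library names carry no replicate number of the labels. The second listing of ical1 and either suffix of ctr1 alone were tried after seeing the data. The cause of the changes below was not tested. The number of clusters with a changed share was 5 in place of 8 among protoplast libraries sharing barcodes with nuclei and 4 to 9 with 1 library left out (4 without nuclei replicate 1, 5 without nuclei replicate 2 or 3 or ctr1). It was 11 by DESeq2 and 6 by exact permutation of the shares, 2 higher and 4 lower. Log2 folds with 1 library left out were -1.81 to -1.53 for cluster 11 and -2.72 to -2.16 for cluster 18. With protoplasts under 20000 UMIs left out, 2 in place of 9 clusters passed in relative UMIs, cluster 11 at 0.45, which stood at 0.52 to 0.69 with 1 library left out. Clusters past the threshold in genes at matched UMIs were 3 in place of 0 at 20 cells, with a spread per preparation or with that UMI minimum, and 0 to 3 with 1 library left out (2 without ctr3248V3, 1 without ctr914, 3 without ical32hV3). Cluster 18 there stood at -0.016 with that minimum and at -0.0047 (without ctr914) to 0.014 with 1 library left out. Without the 5% of cells with most UMIs, endocortex over cortex was -1.79 and cluster 11 over cortex -1.58 (both adjusted p = 0.0417, exact permutation). Cluster 11 over cortex, at -1.25 with all cells, already had the smallest possible unadjusted p, so that only the adjustment moved it past the threshold. This cut takes a larger part of cluster 11 and of the endocortex than of the cortex among protoplasts, and a smaller part among nuclei. Endocortex minus cortex UMIs, 0.52 in the main analysis, were 0.69 with the 20000 minimum and lost their call (adjusted p = 0.0536, exact permutation). They lost it too at 0.55 without the ical libraries (adjusted p = 0.0857, exact permutation), where fewer libraries raise the smallest possible p. With 1 library left out they were 0.43 to 0.65. Endocortex minus endodermis UMIs passed at 5 cells, which keeps ical1, at 0.81 (adjusted p = 0.0357, exact permutation), and were 0.63 to 0.89 with 1 library left out. Some values near 0 changed sign. The endodermis share stood at 0.027 by cluster and 0.026 by type without nuclei replicate 1 and as low as -1.29 by either without ctr4h, and its correlation with the endocortex at 0.033 on log2 odds. Relative UMIs of the cortex stood at 0.0038 at 5 cells, 0.015 at 20 cells, 0.30 against the median of all cells, 0.0029 without the ical libraries, 0.030 among libraries sharing barcodes, and 0.032, 0.011, 0.013 and 0.030 without ctr4h, ctr914, ical1 or nuclei replicate 1, its lowest being -0.11 without ctr3248V3. Those of the endodermis stood at 0.051 against the median of all cells. Cluster 18 rests on 2 to 40 cells per protoplast library, which limits its precision.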
